A study of Mus musculus with 4 samples.

Results

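Fcer2a encodes CD23, the low-affinity receptor for IgE, and its surface protein is one of the markers on which the sequenced cells were sorted. The gene was taken by its symbol and identifier (ENSMUSG00000005540), as 1 of the 55401 genes of the count table and as the 5 of 1556 rows of the splicing table that name it. Those rows list events that differed between the genotypes in the depositors' own comparison, so Fcer2a was chosen by measured inclusion levels in the same contrast, and its abundance in the libraries is given as a description with no test. RNA was sequenced from follicular B (FOB) cells of the spleen, sorted as B220+CD93-CD23highCD21low, in 2 WT and 2 Hnrnpf bKO libraries from C57BL/6 mice aged 7 weeks. Both genotypes carried Hnrnpf fl/fl alleles. Hnrnpf bKO mice also carried a heterozygous Cre allele that is active in B cells. The WT group did not carry Cre, so the effects of the Cre allele cannot be told apart from those of the deletion. The sources used here do not state whether each library came from an individual mouse, so p-values measure the spread between these libraries, which may be technical.

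CD23 is a type II membrane protein of the C-type lectin family, in which a stalk that forms a coiled coil holds the lectin head that binds IgE. It lowers IgE production when IgE complexes engage it on B cells, carries IgE-bound antigen to other cells for presentation, and is cut from the surface by the protease ADAM10 to give soluble CD23. In the mouse spleen it is abundant on FOB cells and scarce on marginal zone B cells, its transcription is induced by IL-4 through STAT6 and by CD40, and CD21 and several integrins are further ligands. The deleted protein, hnRNP F, is an RNA-binding protein that binds runs of guanines and takes part in the choice of exons.

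The gene lies on chromosome 8 of GRCm38 from 3681737 to 3694175 on the minus strand. GENCODE annotates 8 transcripts, 7 of them protein coding and 1 with a retained intron, and they use 4 different first exons. The transcript Fcer2a-201 has 12 exons and 2242 bases, of which 993 are coding. Its exons 5 to 8 are the repeats of the stalk. Each is 63 bases long, or 21 codons, so that removing or exchanging any of them keeps the reading frame. They are shown because they are the part of the gene where annotated coding transcripts differ by whole exons of equal size, as in an event of mutually exclusive exons. The 4 sequences are read from the GRCm38 transcripts, 5′ to 3′, at chr8:3688798-3688860, chr8:3688534-3688596, chr8:3688287-3688349 and chr8:3688117-3688179, and capitals mark the 17 positions that hold the same base in all of them.
exon 5: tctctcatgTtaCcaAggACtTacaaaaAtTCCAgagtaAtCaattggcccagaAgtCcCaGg
exon 6: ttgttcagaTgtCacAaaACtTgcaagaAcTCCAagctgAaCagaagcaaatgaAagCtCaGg
exon 7: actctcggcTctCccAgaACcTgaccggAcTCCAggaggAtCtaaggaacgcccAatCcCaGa
exon 8: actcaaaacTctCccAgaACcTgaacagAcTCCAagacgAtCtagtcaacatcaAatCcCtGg

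Exons 7 and 8 were the most alike of these, with 74.6% identical bases, against 50.8% to 52.4% in the other 5 pairs. Exons of this size are uncommon, at 1018 of 165262 internal coding exons of the annotation (0.62%). Fcer2a-208 lacks exon 5 and Fcer2a-206 lacks exon 6. None of the 4 repeats holds the run GGG on the transcript strand, whereas 43.4% of internal coding exons of 63 bases do. Upstream, exons 1 and 2 hold none, exon 3 holds 4 such runs and exon 4 holds 2. Downstream, exon 9, which directly follows the repeats, also holds none, and exons 10, 11 and 12 hold 2, 3 and 18. Exon 12 is 1272 bases long, of which 196 are coding. Among exons 3 to 11, 7 of 9 (77.8%) have a length that is a multiple of 3, against 41.1% of internal coding exons in the annotation. The search was for the letters GGG alone, and a run or its absence is a description of the sequence.

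The start of the coding region also varies among the annotated transcripts. Exon 3, at chr8:3690022-3690141, is left out whole in Fcer2a-203, and in Fcer2a-204 only its last 39 bases are kept, shown here in capitals. Exon 4 follows at chr8:3689777-3689830.
exon 3: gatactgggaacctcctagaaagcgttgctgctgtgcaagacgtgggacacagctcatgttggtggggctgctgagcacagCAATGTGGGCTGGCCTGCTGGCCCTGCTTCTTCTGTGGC
exon 4: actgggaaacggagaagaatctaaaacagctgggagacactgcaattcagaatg

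The coding parts of 3 of the first coding exons show how the forms begin, with the start codon in capitals. They lie at chr8:3691119-3691140 for Fcer2a-201, chr8:3690327-3690345 for Fcer2a-205 and chr8:3690809-3690827 for Fcer2a-207, and they give each form a different cytoplasmic start.
Fcer2a-201: ATGgaagaaaatgaatactcag
Fcer2a-205: ATGgacacgcaccatacag
Fcer2a-207: ATGaattctcaaaaccagg

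**Figure D1:**
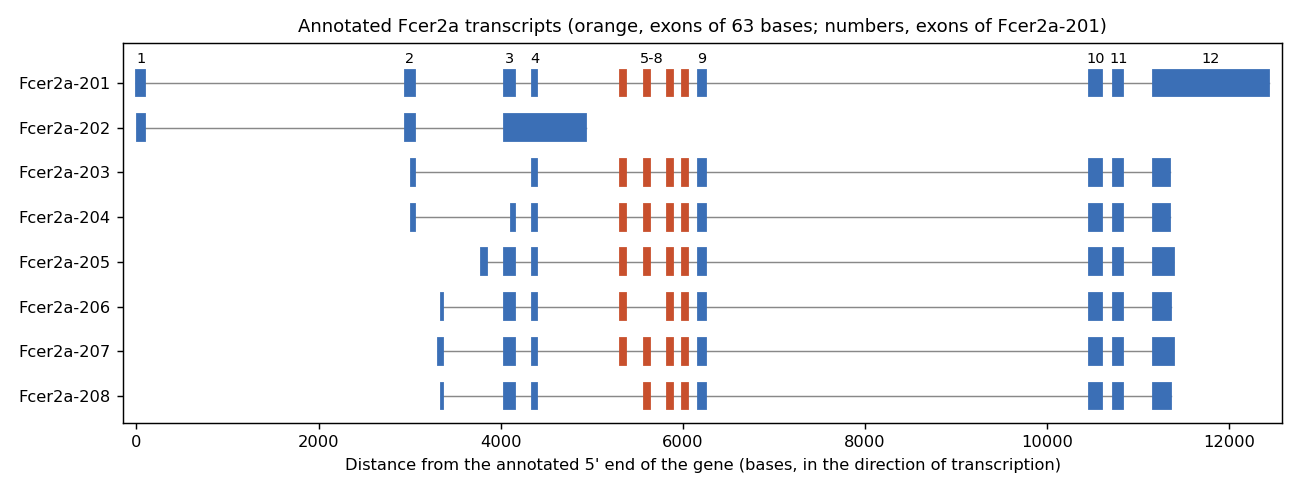
The 8 annotated Fcer2a transcripts, drawn to scale by distance in bases from the annotated 5′ end of the gene in the direction of transcription, with boxes for exons and lines for introns. The 4 exons of 63 bases (orange) are all present in 5 of the 7 coding transcripts, Fcer2a-206 and Fcer2a-208 lack 1 of them each, and Fcer2a-202 ends before them.

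Of the 5 Fcer2a rows in the splicing table, 3 were of the type with mutually exclusive exons and 2 of the type with a skipped exon. Mutually exclusive exons made up 46 of the 1556 rows (2.96%), so Fcer2a supplied 3 of these 46, and it was the only gene of the table with at least 3. Skipped exons were the most frequent type, at 1017 rows (65.4%). The median gene of the 1173 with a row had 1, and 13 genes (1.11%) had at least the 5 of Fcer2a. The table holds selected events, without exon coordinates or values for single libraries. The rows therefore could not be assigned to the exons printed above, rows that share an exon could not be told from separate ones, and these counts are a description that the choice of the gene rests on.

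At the level of the whole gene, Fcer2a was among the most abundant mRNAs of FOB cells of both genotypes. The WT libraries had 20921 and 24060 counts, and the Hnrnpf bKO libraries had 22306 and 27472. Scaled to the library totals and expressed as CPM, these were 1279 and 1272 in WT, with Wilson intervals at 95% of 1262 to 1296 and 1256 to 1289. They were 1421 and 1520 CPM in Hnrnpf bKO, with intervals of 1402 to 1440 and 1502 to 1538. After scaling, both Hnrnpf bKO libraries lay above both WT libraries, and the WT libraries agreed within their counting error whereas the Hnrnpf bKO libraries did not. The means were 1276 ± 4.49 CPM in WT and 1470 ± 70.0 CPM in Hnrnpf bKO (SD, n = 2 each). The fitted log2 fold change was 0.22 with a standard error of 0.05, or 116% of the WT level. Of the 3970 genes that averaged at least 1000 counts, 7.2% had a log2 fold change above that of Fcer2a, and their median absolute log2 fold change was 0.08. Without the second Hnrnpf bKO library the log2 fold change was 0.16, and without the first it was 0.27.

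Per length, on the scale of FPKM, fragments scaled to exonic length and library total, Fcer2a stood at 413.57 and 411.52 in WT and at 459.54 and 491.57 in Hnrnpf bKO. By this measure it ranked 80 and 81 in WT, compared with 73 and 69 in Hnrnpf bKO libraries among the 14123 genes that passed the filter on low counts. Its nearest neighbors in the order of mean FPKM included Serinc3, a membrane protein of the serine incorporator family, at 438 in WT and 500 in Hnrnpf bKO. They also included Cd22, an inhibitory co-receptor of the B cell receptor, at 426 and 388, and Ltb, which encodes lymphotoxin beta, at 441 and 368. The order of these levels therefore differed between the genotypes, with Fcer2a below Cd22 and Ltb in WT and above both in Hnrnpf bKO. In single libraries the ranges of Fcer2a and Cd22 did not overlap within WT, where Cd22 stood at 419.84 and 431.76, and Fcer2a and Serinc3 overlapped in Hnrnpf bKO, where Serinc3 stood at 514.59 and 485.26. No test of this order was made. The count of Fcer2a sums all its forms, so a change in the share of a form does not show in it. A stretch of its 3′ untranslated region, transcript bases 1983 to 2158, aligned at 90% identity or more to transcripts of 731 other genes, and no such alignment reached the coding part. Reads from that stretch are therefore uncertain in origin.

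**Figure D2:**
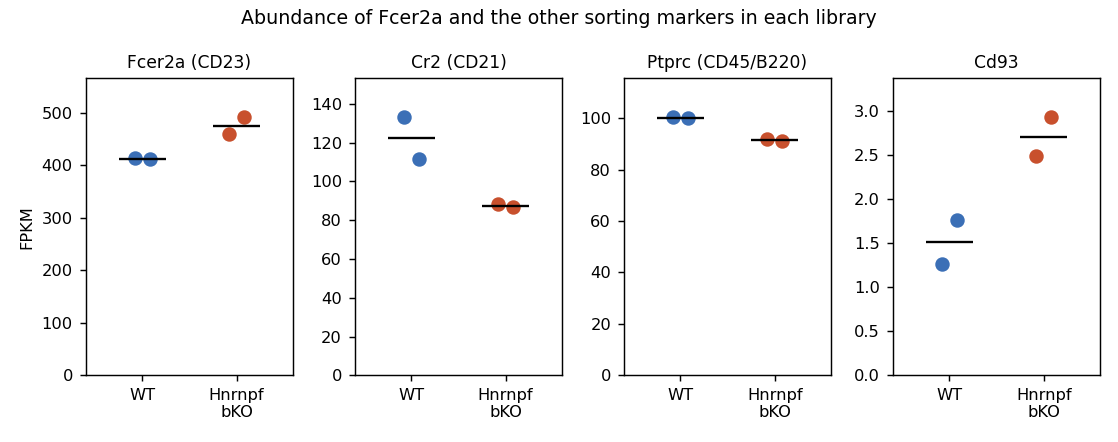
FPKM of Fcer2a and the other 3 sorting marker genes in each of the 4 libraries (points), with the mean of each genotype (lines) and a separate vertical axis from 0 for each gene. The Hnrnpf bKO libraries lie above the WT libraries for Fcer2a and Cd93 and below them for Cr2 and Ptprc.

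The deletion was visible in every library. Hnrnpf had 5780 and 6634 counts in WT, against 1167 and 1194 in Hnrnpf bKO, with a log2 fold change of −2.32 ± 0.06 (adjusted p = 1.05e-10, in the quasi-likelihood test of edgeR after Benjamini-Hochberg adjustment). Library totals ran from 15698567 to 18908963 counts, and TMM factors from 0.992 to 1.01. The libraries of each genotype differed by more than sampling noise, with a chi-square per degree of freedom of 4.30 in WT and 3.86 in Hnrnpf bKO, so neither pair was treated as a library deposited again, and each library was counted by its label. Of all genes tested, 985 (6.97%) had an adjusted p of at most 0.05, the threshold for a call here, with 586 (4.15%) higher and 399 (2.83%) lower in Hnrnpf bKO. Those that also differed at least 2-fold numbered 127 (0.899%). The groups of libraries did not overlap in CPM for 7118 genes (50.4%), as they did not for Fcer2a. An exact permutation test of 2 libraries against 2 has a smallest two-sided p of 0.333, so calls rest on the dispersion that edgeR shares across genes. The p-values below are from the same edgeR test and adjustment, and a log2 fold change is followed by ± its standard error.

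The other markers of the sort moved in different directions from each other. Cr2, which encodes CD21, the complement receptor and CD23 ligand on which the gate was set low, had 133.07 and 111.32 FPKM in WT, against 88.12 and 86.92 in Hnrnpf bKO. The groups did not overlap, and Cr2 fell by 0.47 ± 0.07 on the log2 scale (adjusted p = 0.0014 in edgeR). The ratio of Fcer2a to Cr2 in FPKM was 3.11 and 3.70 in WT, compared with 5.21 and 5.66 in Hnrnpf bKO libraries. Cd93, a marker of immature B cells against which the gate selected, was near the bottom of the range, at 1.26 and 1.76 FPKM in WT, against 2.49 and 2.93 in Hnrnpf bKO. It was higher in both Hnrnpf bKO libraries (a log2 change of 0.85 ± 0.16, adjusted p = 0.00661 in edgeR). Ptprc, which encodes CD45 with its B220 form, had 100.36 and 99.93 FPKM in WT, against 91.89 and 91.11 in Hnrnpf bKO, and did not pass (a log2 change of −0.12 ± 0.04, adjusted p = 0.136 in edgeR). Fcer2a and Ptprc were abundant and Cd93 was low in the 4 libraries, as the gate was drawn, whereas Cr2 mRNA was also abundant although the gate took cells with low CD21. In bulk RNA, a different share of cells with high CD23 and a different amount of Fcer2a RNA per cell cannot be told apart, and the part of the gate on CD23 protein in the Fcer2a level was not tested.

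Among the ligands of CD23, 1 of 6 tested genes changed, which was Cr2, and none rose. Itgb2, the beta chain of the CD11b and CD11c integrins that bind CD23, had 3084 and 3395 counts in WT, against 2630 and 2915 in Hnrnpf bKO and did not pass (a log2 change of −0.15 ± 0.05, adjusted p = 0.125 in edgeR). Transcripts of the IgE heavy chain itself were scarce in these resting cells, with 4 and 13 counts of Ighe in WT, against 8 and 0 in Hnrnpf bKO, and were not tested. The other receptors of IgE had few counts. Fcer1a, which encodes the ligand-binding chain of the high-affinity receptor, had 0 counts in all 4 libraries, and its beta chain Ms4a2 had at most 1. Fcer1g, the shared signaling chain, had 15 and 40 counts in WT, against 31 and 35 in Hnrnpf bKO. Lgals3, an IgE-binding galectin, had 54 and 85 counts in WT, against 86 and 61 in Hnrnpf bKO. Neither of these 2 tested genes passed in edgeR, none of 3 passed in DESeq2, and none had an unadjusted p under 0.05 in either.

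None of the 7 genes of CD23 shedding tested in edgeR passed, nor any of 9 in DESeq2, and 1 of them, the tetraspanin Tspan33, had an unadjusted p under 0.05 in edgeR. Adam10, the main sheddase of CD23, had 2005 and 2281 counts in WT, against 1805 and 2132 in Hnrnpf bKO. The log2 fold change of Adam10 was −0.05 ± 0.06 (adjusted p = 0.674 in edgeR). The related protease Adam17 had 2586 and 2791 counts in WT, against 2403 and 2709 in Hnrnpf bKO. Scaled to the library totals, the 9 genes of this list together made 376 to 391 CPM in WT and 377 to 380 in Hnrnpf bKO, which are overlapping ranges.

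The pathway of IL-4, the cytokine that induces Fcer2a, held 3 calls among 8 tested genes. Il4ra, the chain that binds IL-4, had 76.16 and 77.91 FPKM in WT, against 55.26 and 56.22 in Hnrnpf bKO, groups that were far apart beside their spread. It fell by 0.46 ± 0.05 on the log2 scale (adjusted p = 1.27e-04 in edgeR), to 72.9% of the WT level, while Fcer2a stood at 116%. The kinases of this list moved in both directions. Jak3, bound to the common gamma chain, had 3615 and 4743 counts in WT, against 4575 and 5148 in Hnrnpf bKO and rose (a log2 change of 0.30 ± 0.06, adjusted p = 0.0092 in edgeR). Tyk2 had 2777 and 3377 counts in WT, against 2308 and 2702 in Hnrnpf bKO and fell by 0.22 ± 0.05 on the log2 scale (adjusted p = 0.0257 in edgeR). For Jak3 the counts overlap before scaling to the library totals and not after it, and for Tyk2 they do not overlap. Tyk2 did not pass in DESeq2, and Jak3 had an adjusted p of 0.0544 without the first WT library, and Tyk2 one of 0.156 without the second WT library and 0.127 without the first Hnrnpf bKO library. Stat6, the factor that carries the IL-4 signal to the Fcer2a promoter, had 5416 and 5946 counts in WT, against 4596 and 5603 in Hnrnpf bKO, with a log2 fold change of −0.09 ± 0.05 (adjusted p = 0.409 in edgeR). The common gamma chain Il2rg (log2 fold change 0.01) and Jak1 (−0.05) did not pass either.

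A site of the STAT6 type was looked for in the promoter windows of Fcer2a given by RefSeq for GRCm38.p6, which span 300 bases around a start. The motif searched was the palindrome TTC, any 4 bases, GAA, which reads the same on both strands. It occurred in 1 of 3 windows, 168 bases before the start that lies among the first exons of the shorter transcripts, and it occurs in 2284 of 32851 promoter windows of the genome (6.95%). The stretch at chr8:3691010-3691039 is shown on the minus strand with the match in capitals, and it is a match of letters only.
Fcer2a promoter: agagggtgaaTTCCCAAGAAgggccaggag

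None of the 9 genes of CD40 and the NF-kB factors, the other inducing route, passed in edgeR or in DESeq2, and none had an unadjusted p under 0.05 in either. Without the second Hnrnpf bKO library 1 passed, the adaptor Traf3. Cd40, the receptor for T cell help, had 2352 and 2567 counts in WT, against 2016 and 2427 in Hnrnpf bKO (a log2 change of −0.08 ± 0.06, adjusted p = 0.510 in edgeR). Among the transcription factors tied to Fcer2a, 2 of 7 fell and none rose. Pax5, the factor of B cell identity that acts on the Fcer2a promoter, had 23018 and 25097 counts in WT, against 18816 and 21089 in Hnrnpf bKO and fell by 0.20 ± 0.05 on the log2 scale (adjusted p = 0.0261 in edgeR). Ebf1, its partner in the B cell program, had 3896 and 4101 counts in WT, against 2872 and 3612 in Hnrnpf bKO and fell by 0.24 ± 0.06 on the log2 scale (adjusted p = 0.0421 in edgeR). The groups did not overlap for either gene. Both calls depended on single libraries. The adjusted p of Pax5 was 0.0907, 0.107 and 0.158 without the first WT, the first Hnrnpf bKO and the second Hnrnpf bKO library, and that of Ebf1 was 0.245 and 0.251 without the first WT and the first Hnrnpf bKO library. Notch2, whose signal raises CD21 and directs cells to the marginal zone, had a log2 fold change of 0.12 ± 0.06 (adjusted p = 0.253 in edgeR), and 0.0328 without the first WT library. Bcl6, a repressor in germinal center B cells, had 2234 and 2730 counts in WT, against 1583 and 2333 in Hnrnpf bKO and did not pass (a log2 change of −0.27 ± 0.09, adjusted p = 0.0941 in edgeR), although it did without the second Hnrnpf bKO library (2.25e-05).

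Among other Fc receptors, 1 of 11 tested genes rose and 1 fell. Fcgr2b, the inhibitory receptor for IgG and the main Fc gamma receptor of B cells, had 4184 and 4657 counts in WT, against 4934 and 5667 in Hnrnpf bKO. All counts of Hnrnpf bKO were above those of WT, and the gene rose (a log2 change of 0.33 ± 0.05, adjusted p = 0.00156 in edgeR). Fcgrt, which encodes the neonatal Fc receptor that recycles IgG, had 606 and 912 counts in WT, against 480 and 557 in Hnrnpf bKO and fell by 0.47 ± 0.11 on the log2 scale (adjusted p = 0.0234 in edgeR). Its call was lost without the second WT library (0.211) and without the first Hnrnpf bKO library (0.0641). Fcmr, the IgM receptor, was the Fc receptor nearest to Fcer2a in level, and the ratio of Fcer2a to Fcmr in FPKM ran from 0.598 in the first WT library to 0.642 in the second Hnrnpf bKO library. Fcmr did not pass in edgeR (a log2 change of 0.15 ± 0.05, adjusted p = 0.0688) and passed in DESeq2 (0.0424).

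CD23 is also a C-type lectin and lies near the Cd209 genes. Of 6 tested genes of this list, 2 rose and none fell. Cd69, an early activation antigen that retains lymphocytes in tissue, had 839 and 971 counts in WT, against 1236 and 1202 in Hnrnpf bKO (a log2 change of 0.51 ± 0.08, adjusted p = 0.00294 in edgeR). Clec2d, a ligand of an inhibitory receptor of natural killer cells, had 1806 and 2505 counts in WT, against 2239 and 2773 in Hnrnpf bKO, which overlap before scaling. Its log2 fold change was 0.30 ± 0.08 (adjusted p = 0.0338 in edgeR), and its adjusted p was 0.22 without the first WT library and 0.0702 without the second Hnrnpf bKO library. The genes Cd209c, Cd209e, Cd209f and Cd209g had 0 counts in all 4 libraries.

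Over these lists and the partners of CD23 in signaling together, without Fcer2a, 61 of 77 genes passed the filter on low counts. Of them 4 rose, 7 fell and 50 did not pass, and none of the 11 that changed differed at least 2-fold. With limma on log2 FPKM, 2 of the 11 passed, Il4ra among them. The share of calls was above the 6.97% of all genes tested, but the lists were chosen with earlier results known and nothing is drawn from the comparison. The median log2 fold change was −0.04, beside a median of −0.0023 over all genes tested.

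**Figure D3:**
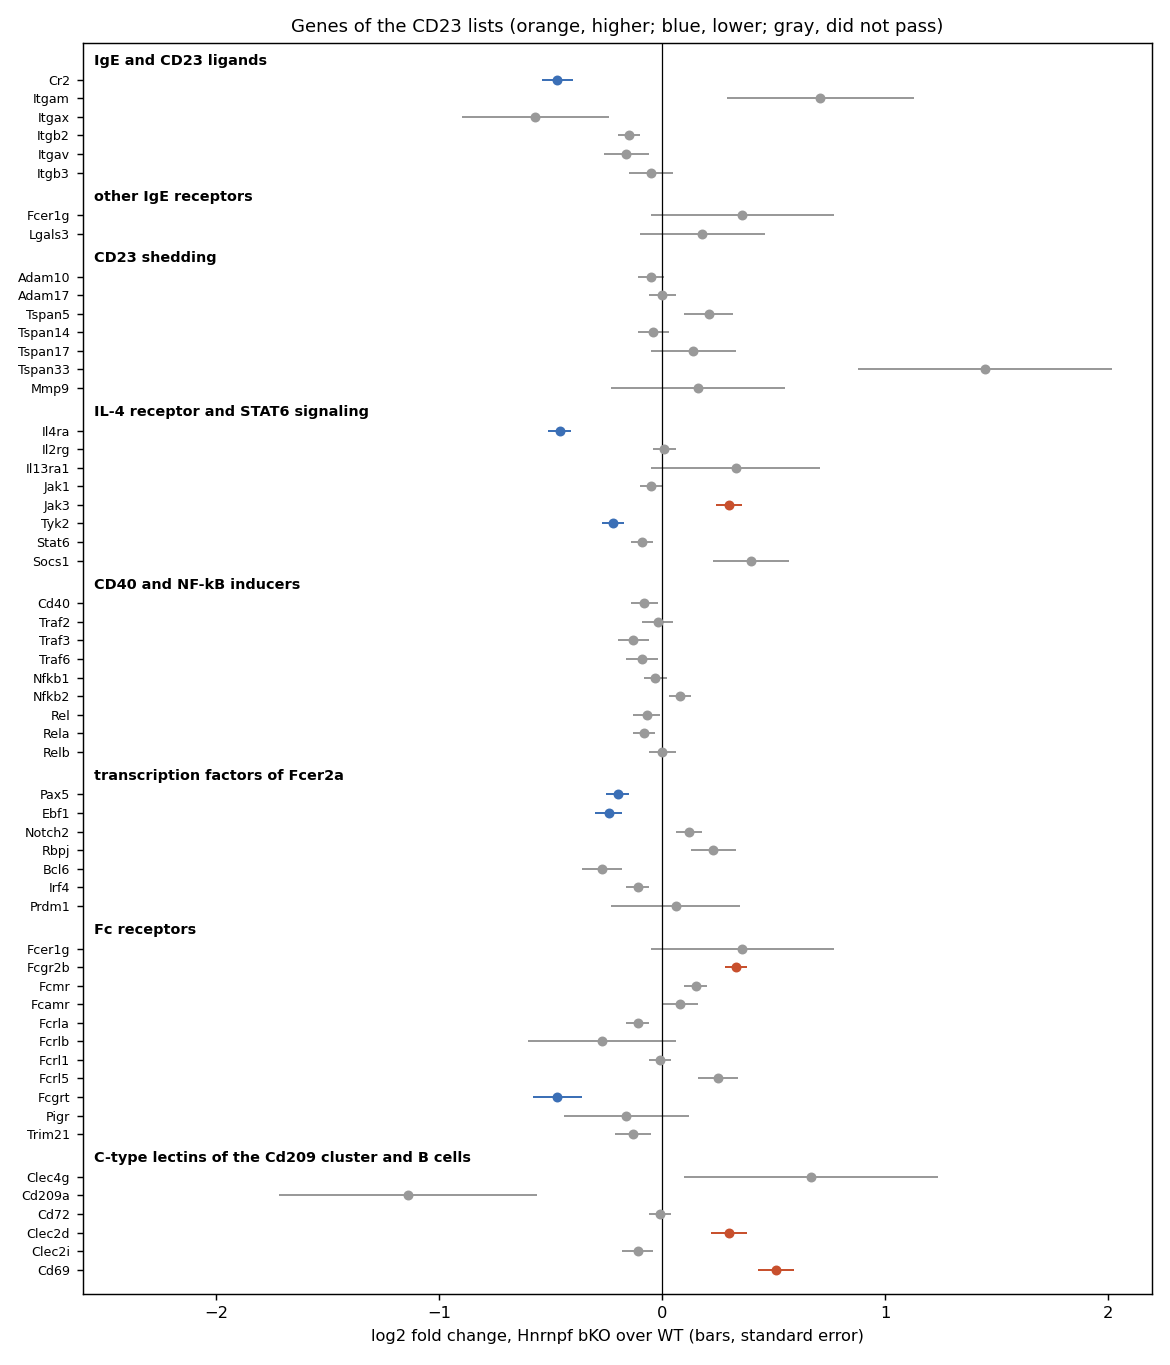
Log2 fold changes of Hnrnpf bKO over WT with standard errors for the tested genes of the 8 lists described above, with genes that rose in orange, genes that fell in blue and genes that did not pass in gray. The genes that rose and those that fell all lie within 1 unit of 0, and the wide bars belong to genes with low counts.

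On the chromosome, 28 other genes lie within 200 kb of Fcer2a, of which 11 were tested, 1 rose and 1 fell. Of all genes tested, 4.15% rose and 2.83% fell. Stxbp2, a gene of vesicle fusion 38093 bases away, had 3418 and 3872 counts in WT, against 3680 and 4224 in Hnrnpf bKO (a log2 change of 0.19 ± 0.05, adjusted p = 0.0389 in edgeR). Mcoln1, a lysosomal channel 166505 bases away, had 1830 and 2187 counts in WT, against 1560 and 1742 in Hnrnpf bKO and fell by 0.21 ± 0.06 on the log2 scale (adjusted p = 0.0489 in edgeR). Both calls were just inside the threshold, and the Stxbp2 counts of the genotypes overlap before scaling. Neither passed in DESeq2, and neither passed when any of the 4 libraries was left out, with adjusted p from 0.076 to 0.162 for Stxbp2 and from 0.094 to 0.196 for Mcoln1. Trappc5, a gene of vesicle tethering on the opposite strand, ends 482 bases from Fcer2a and had 1447 and 1666 counts in WT, against 1441 and 1652 in Hnrnpf bKO (a log2 change of 0.06 ± 0.06, adjusted p = 0.605 in edgeR). In the RefSeq annotation the transcribed regions of Fcer2a and Trappc5 overlap, from 3680280 to 3680921. Since the library kit does not mark strand, reads in the overlap cannot be told apart. In the coordinates of the deposited counts, Trappc5 spans 3676299 to 3681255 and Fcer2a spans 3681737 to 3694175. The overlap therefore lies in the counted region of Trappc5 and outside that of Fcer2a.

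**Figure D4:**
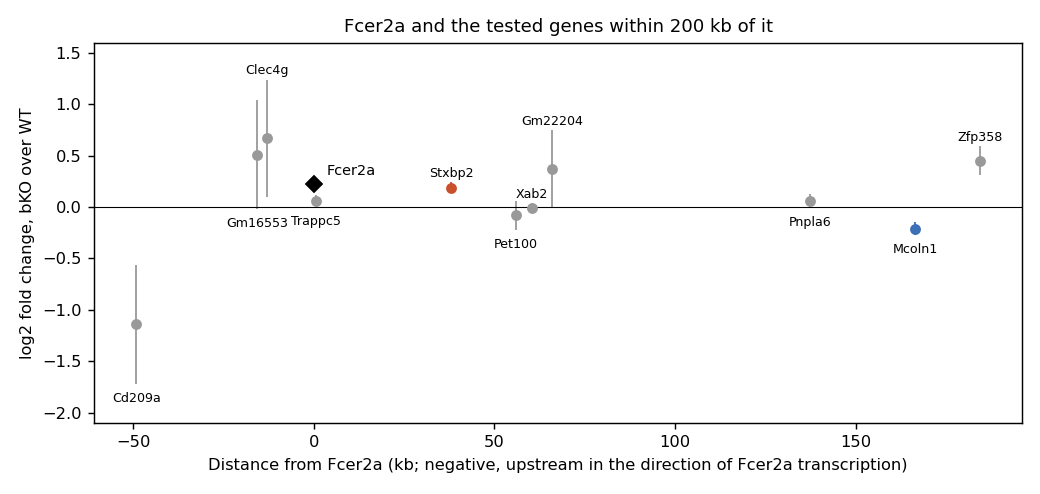
Log2 fold change of Fcer2a (diamond) and of the 11 tested genes within 200 kb, with standard errors, by distance from Fcer2a in kilobases along the direction of its transcription. The nearest downstream gene, Trappc5, lies at a log2 fold change of 0.06 and Fcer2a at 0.22, and the wide bars belong to genes with low counts.

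The pattern of Fcer2a over the 4 libraries was a near-equal pair in WT and a wider pair above it in Hnrnpf bKO. Relative to its own mean, its log2 CPM was −0.10 and −0.12 in WT, against 0.05 and 0.16 in Hnrnpf bKO. Of 3969 other genes that averaged at least 1000 counts, the 5 nearest by Euclidean distance over these 4 values were Mndal, an interferon-inducible nuclear protein (distance 0.019), the ubiquitin ligase Trim44 (0.019), Stat2, a factor of interferon signaling (0.021), Ppp1cc, a protein phosphatase subunit (0.024), and Gramd1a, a sterol transporter (0.024). The list is a description over 4 libraries, with no test.

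**Figure D5:**
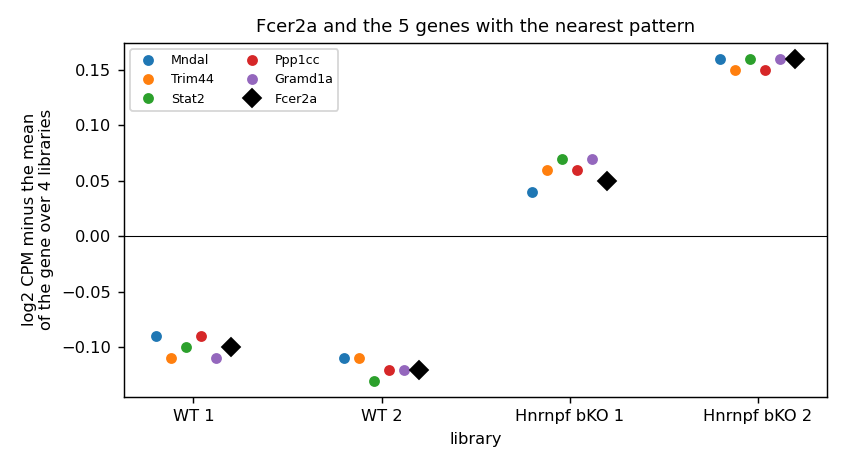
Log2 CPM of Fcer2a (diamonds) and of the 5 genes with the nearest pattern (colored points), each minus the mean of that gene, in the 4 libraries. For all 6 genes both WT libraries lie below 0 and both Hnrnpf bKO libraries above it.

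The lists of B cell subsets and other cells give the state of the sort beside the Fcer2a values. Of all genes tested, 4.15% were called higher and 2.83% lower in Hnrnpf bKO. Nothing is drawn from setting these shares beside the lists, which were chosen with earlier results known. Of 7 genes of FOB cells other than Fcer2a, 2 rose, none fell and 5 did not pass, with a median log2 fold change of −0.04. Among those that did not pass, Cxcr5, a homing receptor for the follicle, had a log2 fold change of −0.10 and Ccr7, a homing receptor for lymphoid tissue, one of 0.02. Ighd, the heavy chain of IgD, had 45691 and 57580 counts in WT, against 56006 and 62521 in Hnrnpf bKO (a log2 change of 0.28 ± 0.05, adjusted p = 0.00451 in edgeR) and rose. The Ighd counts overlap before scaling and not after it. The list as a whole summed to 5990 to 6262 CPM in WT and 6760 to 6914 in Hnrnpf bKO, and without Ighd, a sum added after seeing the data, to 3197 to 3217 CPM in WT and 3301 to 3346 in Hnrnpf bKO.

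None of the 9 marker genes called in edgeR passed in limma on log2 FPKM, where 12 markers had an unadjusted p under 0.05. Of 10 genes of marginal zone B cells, 3 fell and 1 rose. Those that fell were Cr2, the sphingosine receptor S1pr3 (a log2 change of −0.46 ± 0.12, adjusted p = 0.0393 in edgeR) and the Notch target Dtx1 (−0.23 ± 0.05, adjusted p = 0.0229), and the gene that rose was Cd1d1, which presents lipids (0.34 ± 0.08, adjusted p = 0.0163). S1pr3 had 274 and 329 counts in WT, against 189 and 227 in Hnrnpf bKO. It lost its call when any of the 4 libraries was left out, with adjusted p from 0.0682 to 0.151. Dtx1 lost its call without the first WT (0.152) or the first Hnrnpf bKO library (0.127), and Cd1d1 without the first WT library (0.0803). The summed level of this list was 2280 to 2558 CPM in WT and 2152 to 2186 in Hnrnpf bKO. Without Cr2, itself a marker of the sort, the other 9 genes summed to 1373 to 1474 CPM in WT and 1434 to 1478 in Hnrnpf bKO, overlapping ranges in a sum added after seeing the data. The part of these markers in the Fcer2a difference was not tested.

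The 8 T cell genes summed to 33.1 to 49.1 CPM in WT and 29.6 to 42.4 in Hnrnpf bKO, and the 5 germinal center genes to 15.1 to 27.1 and 8.02 to 21.1, both overlapping. The 5 plasma cell genes, among them Irf4 and Xbp1, summed to 328 to 353 CPM in WT and 321 to 326 in Hnrnpf bKO. With all libraries, no gene of these 3 lists passed in edgeR or DESeq2, and none had an unadjusted p under 0.05 in either. Some did in other settings, without passing. These were Irf4 in limma, Cd4 in edgeR with a replicate block, and Cd4, S1pr2, Mybl1 and Gcsam in edgeR with no filter. Single libraries moved these counts: 3 germinal center genes passed without the first Hnrnpf bKO library, S1pr2 and Mybl1 among them, and 1 without the first WT library (Mybl1), and 1 plasma cell gene passed without the second WT library (Jchain). The 4 genes of follicular dendritic cells, which also carry CD23, summed to 8.99 to 12.8 CPM in WT and 13.2 to 15.4 in Hnrnpf bKO. Neither of the 2 tested in edgeR nor any of the 4 in DESeq2 passed, and 1, Mfge8, had an unadjusted p under 0.05 in both and passed without the second WT library. The 6 myeloid genes summed to 13.6 to 20.9 CPM in WT and 23.4 to 33.7 in Hnrnpf bKO, higher in both Hnrnpf bKO libraries. Of them 2 rose, S100a8 with 30 and 48 counts in WT, against 81 and 134 in Hnrnpf bKO (a log2 change of 1.53 ± 0.28, adjusted p = 0.00552 in edgeR) and S100a9 (1.34 ± 0.26, adjusted p = 0.00808), the neutrophil calcium-binding proteins. The other 4 did not pass and lay on both sides of 0. Lyz2 and Itgam had log2 fold changes of 0.56 and 0.71, against −0.21 for Csf1r and −0.86 for Adgre1. Adgre1 had 39 and 62 counts in WT, against 28 and 24 in Hnrnpf bKO (adjusted p = 0.165 in edgeR). The myeloid sums do not measure the share of myeloid cells, and the part of such cells in the Fcer2a difference was not tested. Of 5 transitional B cell genes, Cd93 rose and Rag2 had 0 counts in all libraries, and the list summed to 423 to 433 CPM in WT and 390 to 414 in Hnrnpf bKO.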

How the data were processed

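Poly(A) RNA of sorted FOB cells was sequenced as paired ends with a kit that does not mark strand. Per the submitters' processing notes and the paper, reads were handled with bcl2fastq 2.17.1.14, FastQC 0.10.1 and Cutadapt 1.9.1, aligned to GRCm38 with HISAT2 2.0.1 and counted with HTSeq 0.6.1. The strand setting and annotation release were not given in the sources used here. The deposited gene counts are whole numbers and were not normalized. The authors derived the deposited FPKM from the same counts, the exonic size of each gene and the library total, with rounding. The exonic size in the deposited table is in bases. The authors' splicing table from rMATS holds significant events, with gene, event type, FDR (a p-value after adjustment) and inclusion level difference. The FDR and the difference are results of the authors' comparison and were not used. Only its gene and event type columns were read.

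Genotypes were compared with edgeR 4.0.16 in R 4.3.3 (TMM, filterByExpr, quasi-likelihood test, Benjamini-Hochberg adjustment over 14123 genes), and calls needed an adjusted p of at most 0.05. The paper names DESeq2, run here as an alternative (1.42.0). Other alternatives were RLE size factors, no filter, a minimum of 10 counts per library, limma-trend (3.58.1) on log2 FPKM with a pseudocount of 0.1 or 1 at a mean FPKM of at least 0.5, a replicate block, a fold of at least 2, and each library left out. The lone library is then assumed to vary like the other group. The script was tested on simulated data. Totals of 15698567 to 18908963 counts gave a median standard error of 0.06 on the log2 scale for genes that averaged at least 1000 counts. Wilson intervals cover counting error only, and PCR copies were not marked.

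Exons and transcripts are those of GENCODE for GRCm38, promoters those of RefSeq for GRCm38.p6, and similar genes were searched with blastn 2.17.0. Tables were handled in Python 3.11.15 with pandas 2.3.3 and scipy 1.17.1. Named genes were Fcer2a, Hnrnpf, the sorting markers, the genes of each list that passed and otherwise up to 4 of the most abundant, the tested genes within 200 kb, the 5 nearest in pattern and the 5 above and below in level. Not all are described, some items are not reported here, and the few others named (Ighe, Fcer1a, Ms4a2 and the Cd209 genes among them) were chosen after their values were seen. Fcer2a and all lists were chosen with earlier results of these data known. Of 125 listed genes, 1 (Fdcsp) had no row.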

Additional observations from a re-analysis of the deposited data

How the results depend on the processing

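The log2 fold change of Fcer2a lay between 0.20 and 0.22 in 7 other settings that kept all libraries, and between 0.16 and 0.27 when a library was left out. All 22 named genes that passed kept their direction in every setting that gave a value. Of the genes tied to CD23, 11 passed in DESeq2, 2 in each limma fit and 0 at a fold of at least 2, and 7 to 12 with a library left out, lowest without the first Hnrnpf bKO library. Of the marker genes, 0 passed in each limma fit (12 at an unadjusted p under 0.05), 2 at a fold of at least 2, and 8 to 11 with a library left out. Of the genes within 200 kb, 0 passed in DESeq2, in each limma fit and under the replicate block (3 at an unadjusted p under 0.05 in each), at a fold of at least 2, or with any library left out (0 to 0). Of all genes, 621 passed in DESeq2, 45 and 41 in limma with the lower and higher pseudocount, 127 at a fold of at least 2, 679 to 861 with a library left out, and 1470 with no filter, where 14 genes tied to CD23 passed. In limma 19 of the 22 named genes lost their call, with adjusted p from 0.0634 to 0.239. The causes were not tested.

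The replicate numbers come from the labels alone, and same-numbered libraries did not deviate together (r = −0.0706). With 2 libraries per group this correlation cannot show whether they were paired in the experiment, which the labels do not state. With the replicate number as a block, the log2 fold change of Fcer2a was 0.22, and 8 genes tied to CD23, 7 markers and 612 of all genes passed. At this depth genes with few counts, such as Ighe and Fcer1g, could not show a difference of the size seen in Fcer2a.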
